A study of Glycine max with 18 samples.

Results

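The comparison described here is that of roots of the soybean cultivar Williams 82 (W82) after 10 h of dehydration with roots of the same cultivar after 2 h. Its members were chosen by label: 6 of the 18 arrays of the series, 3 named W-D10 (W82, dehydrated 10 h, late stress) and 3 named W-D2 (W82, dehydrated 2 h, early stress), with all 66195 probes of the soybean GeneChip in use. All plants were wild-type cultivars, 14 days old, with the cultivars grown apart in pots of vermiculite under watering. They were then lifted, washed and laid on paper to dry as whole plants for 0, 2 or 10 h, and only the roots were taken for RNA. Drying took place at a lower temperature and in weaker light than growth. The other 12 arrays were W82 roots at 0 h (W-C) and roots of the cultivar DT2008 at the same 3 times (DT-C, DT-D2 and DT-D10), with 3 biological replicates in each of the 6 groups. The W-C arrays are printed below as a level only, and the DT2008 arrays show where the same interval went differently. Every plant of W-D2 and W-D10 had been lifted and washed, so neither group is an untouched control for the other. Plants kept in water for 2 h or 10 h were not analysed here. Hours of dehydration, hours since lifting, hours in the cooler and dimmer drying conditions and time of day cannot be told apart. RNA came from whole roots, in which fewer cells of a type and less RNA per cell cannot be told apart.

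Roots that lose water accumulate abscisic acid (ABA), a hormone that acts through soluble receptors, protein phosphatases of type 2C (PP2Cs), SnRK2 kinases and bZIP factors that bind the promoters of stress genes. Early responses to water loss are rich in signalling and defence genes, whereas protection against lasting water loss involves sugars such as galactinol and raffinose, late embryogenesis abundant (LEA) proteins, water channels in the plasma membrane and the tonoplast, and changes of the cell wall. Transcription factors of the AP2/ERF, NAC, MYB and HD-Zip families are known regulators of both phases in Arabidopsis.

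Values are log2 expression. The median over the 18 arrays was 0 within 0.001 for all 66195 probes, from which it was inferred that each probe had been centred on its median, so that 0 is that probe's own middle level and a difference of 1 is a 2-fold difference. They say nothing of how abundant a transcript was, and no probe's level is set against another's. Between the 6 arrays, Pearson's r over all probes was 0.522 to 0.607 within W-D2, 0.369 to 0.591 within W-D10 and -0.000687 to 0.147 between the groups. The third W-D10 array stood farthest from its group: 1139 probes lay at least 2-fold from the mean of the other two W-D10 arrays, against 223 to 506 probes for each of the other 5 arrays. Without it, 1000 probes rose and 750 fell from 2 h to 10 h. The listed markers of tissues that a root sample could carry along did not pass the test: 0 of 9 photosynthesis probes (shoot) and 0 of 14 nodulin probes (nodule) were called by limma in the 18-array fit or in the fit to 6 arrays, or by the t-test of the methods. At an unadjusted p under 0.05, 5 photosynthesis probes were higher and 2 lower, and 2 nodulin probes were higher and 2 lower. Outside these lists, Glyma.07G023000 and Glyma.08G218800 match an Arabidopsis protein of NDH-dependent cyclic electron flow. They rose by 2.09 (limma adjusted p = 0.000573) and 1.76 (limma adjusted p = 0.00228), and were named after their values were seen. The median value of the 9 photosynthesis probes was -0.03, -0.42 and -0.12 in the W-D2 arrays and 0.03, 0.44 and 0.05 in the W-D10 arrays, and the part of shoot tissue in any result was not tested. Centring removes presence, so these lists compare groups and cannot show that a tissue was absent.

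From 2 h to 10 h, 958 probes rose and 656 fell by at least 2-fold at a limma adjusted p under 0.05, together 2.44% of all probes tested (1.45% higher, 0.991% lower). With the 6 arrays fitted alone, without W-C or DT2008 arrays lending their spread, 940 rose and 646 fell, and 921 of the 958 and 620 of the 656 were the same probes. The increases were the larger changes. A total of 91 probes rose and 26 fell by at least 4-fold, and 6 rose and 0 fell by at least 8-fold (the counts of these sizes have no test of their own). The 3 W-D10 values lay wholly outside the range of the 3 W-D2 values in 950 of the called increases and 647 of the called decreases, while 26.5% of all probes had such groups without overlap. The median change over all probes was -0.0005, and 7006 probes were higher and 7508 lower at an unadjusted p under 0.05. The t-test that the methods name, run on the same 6 arrays, called 50 increases and 12 decreases at the same thresholds.

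A gene could be given to 5836 of the 66195 probes (5737 genes), from the Glyma identifiers and Arabidopsis matches of the study's tables and from the symbols of the array annotation. The paper covered many more genes on this chip, so a probe without a name here may have one. Of the called probes, 354 of the increases and 120 of the decreases had a gene (8.12% of the probes with a gene, 6.07% higher and 2.06% lower), so most changes have no name here, among them 8 of the 20 largest increases and 13 of the 20 largest decreases. The named probes are no even sample. The study listed 1414 of them because they had changed in at least 1 of its own comparisons on these arrays, and of these 21.6% rose and 5.52% fell from 2 h to 10 h. Of the other 4422 named probes 1.11% rose and 0.95% fell. Median changes of the lists below are to be read against 0.36 over the 1414, 0.03 over the other 4422 and 0.06 over all probes with a gene. Counts for the gene lists below are to be read against 21.6% and 5.52% for members the study listed and against 1.11% and 0.95% for the others. They are not independent evidence, since 110 of the 112 list members called higher and 29 of the 33 called lower were among the 1414. For several lists the share of listed members called higher was under 21.6%. These were WRKY, bZIP, clock, class III peroxidases, nutrient transport, sugar transport, gibberellin 2-oxidases, phospholipases, receptor-like kinases, senescence and cytochrome P450. The share was 0 for photosynthesis, nodulins, ribosomal proteins, lipoxygenases, phenylpropanoids and protease inhibitors, lists with at most 6 listed members each. For NAC and pectin-modifying enzymes the share was close to 21.6%. Glyma identifiers stand for gene models, and the names of functions are those of the nearest Arabidopsis protein. Where a list below has 0 members called in a direction by limma in the 18-array fit, the 6-array fit and the t-test called 0 there too, and the counts at an unadjusted p under 0.05 follow in parentheses. Most list calls below were not made by that t-test, which called 6 members higher and 1 lower. The 6 were 2 of galactinol and raffinose synthesis and 1 each of ABA turnover and transport, expansins and xyloglucan endotransglucosylases, aquaporins and phospholipases. The decrease was in nutrient transport. All other lists, among them AP2/ERF, MYB, NAC, jasmonate, LEA and low oxygen, had 0 calls by it. Soybean genes often occur in near-identical copies, and a probe may read more than 1 copy.

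Water channels and the sugars of the raffinose family held some of the largest named increases, beside single genes of other lists. The largest was Glyma.13G333100, which encodes a homologue of TIP1;3, a water channel of the vacuolar membrane. Its values were -0.80, -0.09 and -0.72 in W-D2 and 3.08, 3.15 and 3.06 in W-D10, with -1.53, -0.77 and -1.61 in W-C. The 3 W-D10 arrays lay close together and far above every W-D2 array, a change of 3.64 (SE 0.30, adjusted p = 1.37e-06) or 12.4-fold. A second TIP1;3 homologue, Glyma.15G041200, read -0.51, 0.04 and -0.05 in W-D2 and 2.74, 2.92 and 2.78 in W-D10, a change of 2.99 (SE 0.19, adjusted p = 2.5e-07). Its W-C values of -0.25, -0.05 and -0.05 overlapped those of W-D2. Another, Glyma.11G143100, rose by 1.69 (adjusted p = 4.89e-05). Of the 8 aquaporin probes measured, 4 rose and 0 fell (5 higher and 2 lower at an unadjusted p under 0.05), all 4 of them among the 6 that the study had listed, with a median change of 1.00 over the 8. The member Glyma.03G078700, a homologue of the plasma membrane channel PIP1;4, stood at the edge: its change of 1.02 (adjusted p = 0.00501) dropped below 2-fold without any 1 of 4 arrays (W-D2 replicate 1 or 3, W-D10 replicate 1 or 2), at 0.87 to 0.98. The other PIP1;4 homologue, Glyma.18G198300, changed by -0.84 and did not reach 2-fold.

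Galactinol synthase makes the donor from which raffinose synthase builds raffinose, a sugar that protects membranes and proteins during drying. Of 7 probes of this pathway, all listed by the study, 5 rose, 0 fell and 2 did not pass the test (6 higher and 0 lower at an unadjusted p under 0.05), with a median change of 1.67. Glyma.19G227800, a GolS2 homologue, read -0.87, -1.08 and -0.80 in W-D2 and 2.26, 2.10 and 2.64 in W-D10, and -3.06, -3.68 and -2.92 in W-C. No arrays of the 3 groups overlapped, and the step from 2 h to 10 h was 3.25 (SE 0.27, adjusted p = 9.82e-07) or 9.5-fold. The raffinose synthase homologue Glyma.05G003900 read 0.02, 0.00 and -0.07 in W-D2 and 2.50, 3.05 and 2.68 in W-D10, a change of 2.76 (SE 0.22, adjusted p = 8.48e-07). Its W-C values of 0.10, 0.00 and -0.46 overlapped W-D2, unlike those of the galactinol synthase. The GolS1 homologue Glyma.20G094500 read 0.01, -0.02 and 0.04 in W-D2 and 1.78, 2.10 and 2.29 in W-D10, with -2.69, -2.80 and -2.54 in W-C, and rose by 2.05 (SE 0.18, adjusted p = 2.27e-06). A second GolS1 homologue, Glyma.10G145300, rose by 1.17 (adjusted p = 0.000385). The pair that did not pass were Glyma.17G111400 (DIN10 homologue, 0.88), whose adjusted p of 0.00388 passed and whose fold did not, and Glyma.02G303300 (SIP1 homologue, -0.03).

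**Figure D1:**
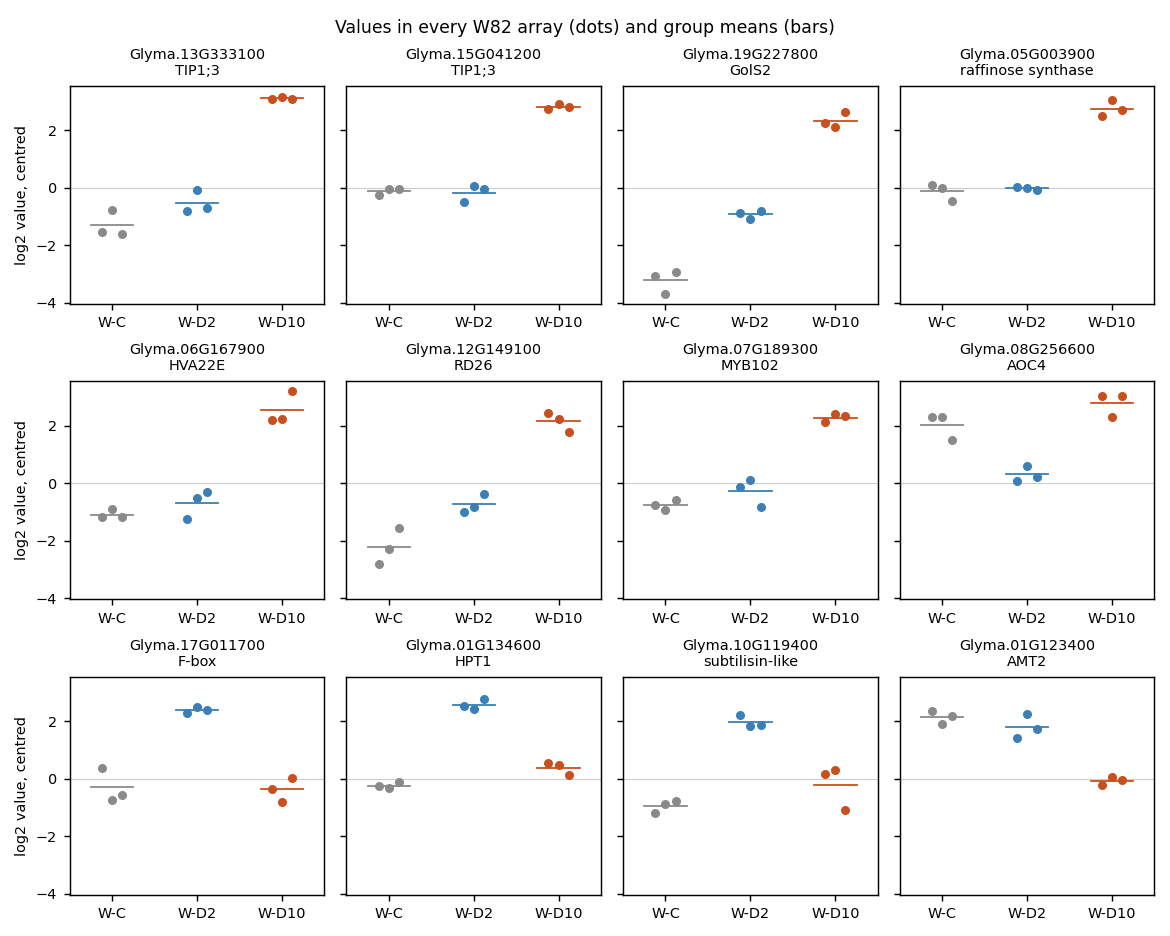
Centred log2 values (vertical axis) of 12 named genes in every W82 array: grey W-C, blue W-D2, orange W-D10, 3 dots a group with the group mean as a bar. In the 8 genes of the top and middle rows all W-D10 dots lie above all W-D2 dots, and in the 4 genes of the bottom row all lie below.

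LEA proteins and dehydrins coat proteins and membranes in drying cells. Of 34 such probes, 6 of them listed by the study, 5 rose and 0 fell (11 higher and 1 lower at an unadjusted p under 0.05). The 6 held 4 of the 5 increases. The median change was 0.25, against 0.06 over the probes with a gene and -0.0005 over all probes. Without W-D10 replicate 3 the list had 3 increases. Glyma.06G167900, a homologue of the ABA-induced membrane protein HVA22E, had the largest change of the list. It read -1.23, -0.52 and -0.30 in W-D2 and 2.18, 2.24 and 3.20 in W-D10, a change of 3.22 (SE 0.28, adjusted p = 1.79e-06), and in W-C -1.18, -0.90 and -1.19. Glyma.16G038000, matched to an Arabidopsis dehydrin, had already left the control level by 2 h. Its values were -4.86, -3.84 and -3.98 in W-C and -0.36, -0.68 and -0.50 in W-D2 and 0.36, 0.61 and 1.09 in W-D10, and the later step was 1.20 (adjusted p = 0.00883). Without W-D10 replicate 3 that step was 1.00, just under 2-fold. The LEA probe PM35 (array symbol) rose by 1.46 (adjusted p = 0.0154). LEA homologues Glyma.13G363300 (array symbol PM30) and Glyma.12G001600 (PM27) rose by 1.14 and 1.00. The latter lost its call without W-D2 replicate 2 (0.94) or W-D10 replicate 3 (0.90).

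Genes that move or break down ABA were mostly higher at 10 h. Of 7 probes of ABA turnover and transport, all listed by the study, 6 rose and 0 fell (6 higher and 0 lower at an unadjusted p under 0.05), with a median change of 1.44. ABCG25 exports ABA from cells in Arabidopsis, and its homologue Glyma.20G174800 read -0.06, -0.38 and -0.42 in W-D2 and 1.34, 1.35 and 1.47 in W-D10, a change of 1.67 (SE 0.19, adjusted p = 2.69e-05). The other ABCG25 homologue, Glyma.10G217300, read -0.25, -0.24 and -0.31 in W-D2 and 1.00, 1.12 and 0.87 in W-D10 and rose by 1.26 (adjusted p = 5.51e-06). Homologues of NRT1.2, which imports ABA and nitrate, rose by 1.49 (Glyma.01G042100) and 1.44 (Glyma.02G022200, a member outside the naming rule, chosen after its values were seen). Glyma.01G153300 encodes a homologue of CYP707A1, the hydroxylase that inactivates ABA, and had another course. It read 1.35, 1.20 and 0.86 in W-C and -1.78, -2.01 and -1.55 in W-D2 and -0.12, 0.52 and -0.19 in W-D10. The W-D2 arrays were the lowest of the 3 groups, W-D10 lay between W-D2 and W-C without overlap, and the rise from 2 h was 1.86 (SE 0.22, adjusted p = 4.21e-05). Of 2 homologues of the ABA importer ABCG40, one rose by 1.36 (Glyma.03G168000) and the other did not pass (Glyma.19G169400, -0.47), both named after their values were seen.

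Of 18 probes for ABA receptors, PP2Cs, SnRK2 kinases and their bZIP factors, 4 rose and 0 fell (11 higher and 4 lower at an unadjusted p under 0.05), with a median change of 0.49. The 4 were among 14 that the study had listed. All 4 encode PP2Cs, which bind the receptors and hold ABA signalling down. Glyma.19G069200, a homologue of the ABA-induced PP2C HAI2, read -0.31, -0.04 and 0.21 in W-D2 and 1.43, 1.54 and 1.78 in W-D10, a change of 1.63 (SE 0.21, adjusted p = 0.000115). Its W-C values of 0.09, -0.29 and -0.28 overlapped W-D2. Homologues of ABI1 rose by 1.20 (Glyma.08G033800, adjusted p = 7.32e-05) and 1.19 (Glyma.05G227100, adjusted p = 0.000311), and the PP2CA homologue Glyma.11G222600 by 1.17 (adjusted p = 0.000955). The 4 receptor probes (PYL1 and PYL5 homologues) had changes of -0.67 to -0.04 and the homologue of the bZIP factor ABF1 (Glyma.07G213100) one of 0.67, and none of these 5 was called.

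AP2/ERF factors made up the largest group of regulators among the increases. Of 38 probes 12 rose and 1 fell, all 13 among the 31 that the study had listed, with a median change of 0.54 over the 38. Glyma.11G014200, the largest increase of this family, read -2.88, -1.70 and -2.35 in W-C and -0.83, -0.49 and -0.01 in W-D2 and 2.61, 2.47 and 2.77 in W-D10. It rose at each step without overlap, by 3.06 (SE 0.28, adjusted p = 2.95e-06) from 2 h to 10 h. Glyma.05G049900, matched to the Arabidopsis gene DDF1, read 0.35, 0.74 and -0.20 in W-C and -2.18, -1.96 and -1.82 in W-D2 and 0.33, 0.89 and 0.03 in W-D10, a change of 2.41 (SE 0.21, adjusted p = 2.89e-06). Here W-D2 was the low group, and W-C and W-D10 overlapped. Glyma.01G231000 read -0.79, -0.93 and -0.80 in W-D2 and 1.09, 1.51 and 0.98 in W-D10, with 0.13, 0.35 and -0.44 in W-C, and rose by 2.03 (SE 0.18, adjusted p = 2.95e-06). A DREB26 homologue, Glyma.14G147500, rose by 2.34 (SE 0.22, adjusted p = 4.97e-06). The other 8 increases ran from 1.01 to 2.14, and the single decrease was an ERF1 homologue (Glyma.10G036700, -1.17, named after its value was seen), which lost its call without W-D2 replicate 3 or without W-D10 replicate 1 or 2.

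Of 43 MYB probes 8 rose and 3 fell, all of these among the 28 that the study had listed. The leading increases shared 1 Arabidopsis match, MYB102, a wound and osmotic stress factor. Glyma.15G066800 read -0.24, 0.13 and 0.03 in W-D2 and 2.04, 2.40 and 4.15 in W-D10, a change of 2.89 (SE 0.42, adjusted p = 0.000289). Glyma.07G189300 read -0.12, 0.12 and -0.82 in W-D2 and 2.13, 2.39 and 2.32 in W-D10, a change of 2.55 (SE 0.19, adjusted p = 5.61e-07). A further copy, Glyma.08G059900, rose by 1.60 (adjusted p = 4.42e-05). In each of these copies all W-D10 arrays lay above all W-D2 arrays. Glyma.02G254200, a MYB factor by its family label, went the other way, at 0.66, 1.16 and 0.90 in W-D2 and -0.63, -0.77 and -0.93 in W-D10, a change of -1.68 (SE 0.17, adjusted p = 7.48e-06).

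Of 33 NAC probes 4 rose and 1 fell (0 without W-D2 replicate 3 or W-D10 replicate 1), with a median change of -0.01. All those called were among the 17 that the study had listed, a share of increases close to that of all listed probes. Glyma.12G149100 matched RD26 (ANAC072), a NAC factor induced by drying and ABA in Arabidopsis. It read -2.81, -2.29 and -1.55 in W-C and -1.01, -0.81 and -0.39 in W-D2 and 2.44, 2.23 and 1.78 in W-D10, a further rise of 2.89 (SE 0.26, adjusted p = 3.21e-06). Glyma.04G212000, a homologue of the xylem factor XND1, read -0.72, -0.64 and -0.83 in W-D2 and 1.04, 0.82 and 1.19 in W-D10 and rose by 1.75 (adjusted p = 2.17e-05). Of 11 HD-Zip probes 3 rose and 2 fell, but 0 fell without W-D2 replicate 2 or without W-D10 replicate 1 or 2, 1 fell without W-D2 replicate 3 and 1 fell in the 6-array fit. The calls all lay among 7 members listed by the study. Both ATHB7 homologues, ABA-induced factors in Arabidopsis, were among the increases: Glyma.16G021000 read -0.01, 0.01 and -0.96 in W-D2 and 1.86, 1.45 and 2.04 in W-D10 and rose by 2.10 (adjusted p = 0.000133), and Glyma.07G052100 rose by 1.56 (adjusted p = 0.0005). An ATHB6 homologue, Glyma.11G242200, fell by 1.02 (adjusted p = 0.00837), and lost its call without W-D2 replicate 2 or without W-D10 replicate 1 or 2 (-0.99 to -0.84). Of 22 bZIP probes 2 rose and 1 fell, all among the 13 that the study had listed.

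WRKY factors are best known from defence and wounding. By limma 0 of 66 probes rose and 3 fell in the 18-array fit and in the 6-array fit, 0 were called by the t-test, and at an unadjusted p under 0.05 there were 9 higher and 19 lower. Without W-D10 replicate 2 there were 3 increases and 3 decreases, and without W-D2 replicate 3 or after quantile normalization 1 and 3. Only 9 of the 66 had been listed by the study, among them 2 of the 3 decreases. The 3 decreases had in common a W-D2 level above both other groups. The WRKY33 homologue Glyma.18G208800 read 0.21, 0.08 and -0.84 in W-C and 1.22, 1.07 and 1.46 in W-D2 and -0.37, -0.01 and 0.03 in W-D10, a change of -1.36 (SE 0.23, adjusted p = 0.00111). The WRKY70 homologue Glyma.04G223300 (array symbol WRKY58) read -0.20, -0.24 and -0.19 in W-C and 1.49, 1.91 and 1.82 in W-D2 and 0.66, 0.84 and 0.19 in W-D10, a change of -1.18 (SE 0.21, adjusted p = 0.00159). WRKY5 (array symbol) read 0.24, 0.17 and -0.98 in W-C and 1.46, 1.32 and 1.84 in W-D2 and 0.00, -0.10 and 0.00 in W-D10, a change of -1.57 (SE 0.25, adjusted p = 0.000515). W-D10 lay below W-D2 without overlap in all 3. Without W-D10 replicate 3 the fall of Glyma.04G223300 was 0.99 and just missed 2-fold.

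**Figure D2:**
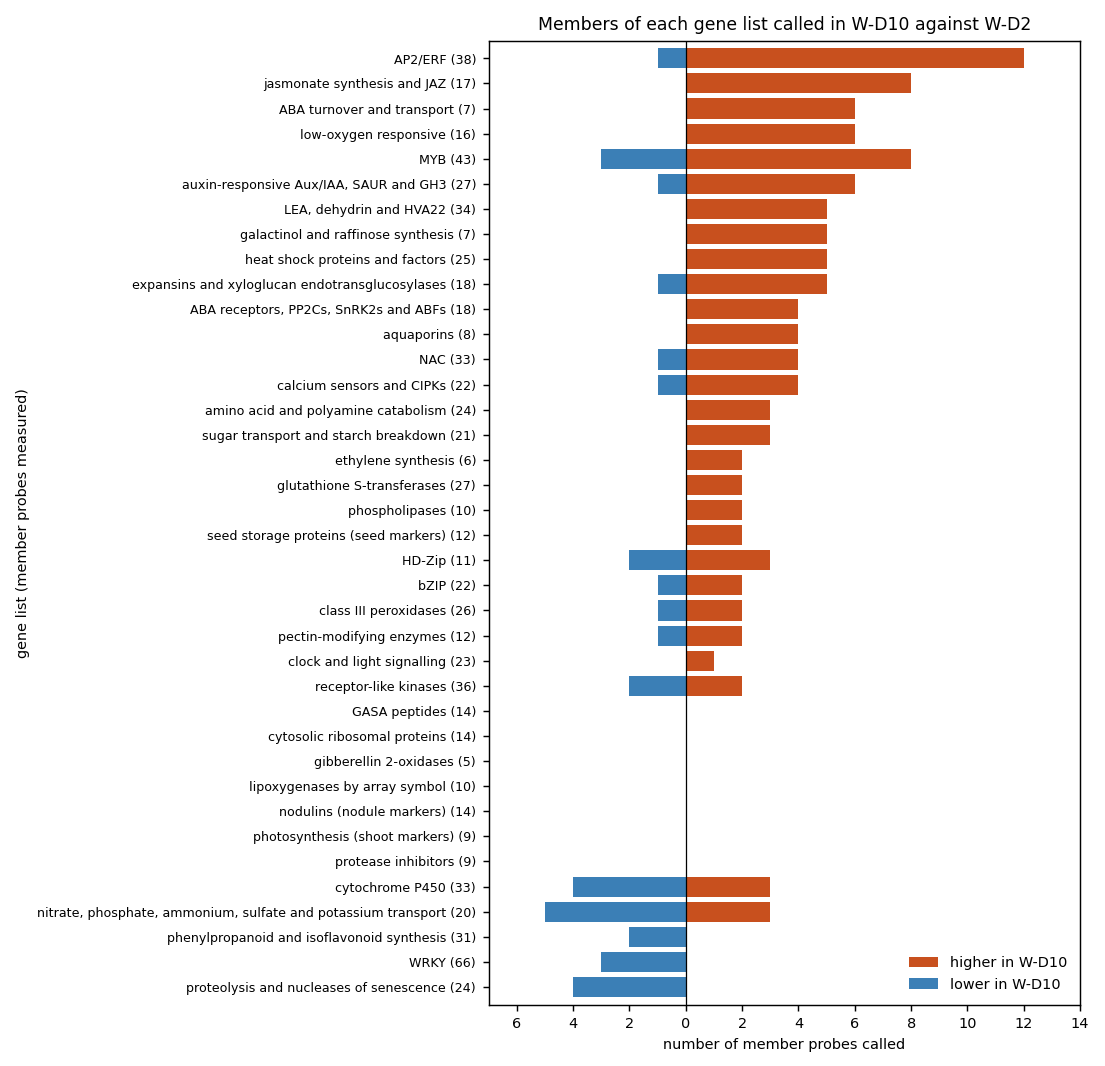
Number of member probes of each gene list called higher (orange, to the right) or lower (blue, to the left) in W-D10 than in W-D2, with the number of probes measured in parentheses. AP2/ERF had the most increases (12 of 38), nutrient transport had 5 decreases of 20, a rank that changed when single arrays were left out, and 7 lists had no call.

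Jasmonate and ethylene are made from fatty acids of the plastid and from methionine, respectively, and the steps of both pathways were read by separate probes. Of 17 jasmonate probes 8 rose and 0 fell (12 higher and 2 lower at an unadjusted p under 0.05), with a median change of 0.84. There were 4 increases without W-D2 replicate 3 and 5 without W-D10 replicate 3 or with array weights. All 8 were among the 14 members that the study had listed. Allene oxide cyclase makes the ring of the jasmonate precursor, and the AOC4 homologue Glyma.08G256600 read 2.30, 2.28 and 1.50 in W-C and 0.09, 0.61 and 0.22 in W-D2 and 3.03, 2.30 and 3.02 in W-D10, a change of 2.47 (SE 0.25, adjusted p = 6.85e-06). Its W-D2 arrays were the low group and W-D10 lay above W-C, with the lowest W-D10 array just over the highest W-C array. OPR3 reduces that precursor, and its homologues Glyma.17G049900 and Glyma.13G109800 read -0.94, -1.31 and -1.04 in W-D2 and 0.91, 0.76 and 0.72 in W-D10 for the former and -0.43, -0.92 and -0.97 in W-D2 and 1.36, 0.94 and 0.98 in W-D10 for the latter. They rose by 1.90 (adjusted p = 2.47e-05) and 1.87 (adjusted p = 1.18e-05). Glyma.09G254200, a homologue of the methyltransferase JMT, rose by 1.58 (adjusted p = 0.000336). The COI1 receptor probe changed by -0.75 and did not reach 2-fold. Of 6 ethylene synthesis probes, 5 of them listed by the study, 2 rose and 0 fell (2 higher and 1 lower at an unadjusted p under 0.05), with 1 decrease without W-D10 replicate 3. The 2 increases were among the 5. Both are ACC synthases, which set the rate of ethylene synthesis: Glyma.01G196100 (ACS8 homologue) read -0.85, -0.56 and -1.32 in W-D2 and 1.60, 1.09 and 1.35 in W-D10 and rose by 2.25 (adjusted p = 1.41e-06), and Glyma.05G223000 (ACS7 homologue) rose by 1.89 (adjusted p = 2.84e-05). The other two ACS7 homologues changed by -0.84 (Glyma.07G128000) and -0.31 (Glyma.01G003900), and neither was called.

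Among 27 auxin-responsive probes 6 rose and 1 fell, all of these among the 15 that the study had listed. GH3 enzymes join auxin to amino acids, and Glyma.17G165500, a GH3.2 homologue, read -0.48, -1.25 and -0.67 in W-D2 and 1.02, 0.48 and 1.34 in W-D10, a change of 1.75 (SE 0.21, adjusted p = 5.77e-05). The Aux/IAA repressor homologues Glyma.10G031800 and Glyma.02G142600 (both IAA4) rose by 1.53 (adjusted p = 0.000126) and 1.47 (adjusted p = 0.0003). The SAUR-like Glyma.07G051700 fell by 1.30 (adjusted p = 1.98e-05), from 0.31, 0.61 and 0.21 in W-D2 to -0.89, -0.96 and -0.93 in W-D10. Gibberellin 2-oxidases, which inactivate gibberellin, had a median change of 0.79 over 5 probes, all listed by the study. However, 0 were called by limma in either fit or by the t-test, and 1 rose without W-D2 replicate 1 or W-D10 replicate 3. At an unadjusted p under 0.05, 4 were higher and 1 lower, and the largest change, of Glyma.13G259400, was 0.99.

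A set of genes known from low oxygen in Arabidopsis had its lowest level at 2 h. All 16 probes of the list were among those the study had listed as changed on these arrays. Their median level was 2.21 in W-C, -0.49 in W-D2 and 0.02 in W-D10, and from 2 h to 10 h 6 rose and 0 fell (8 higher and 0 lower at an unadjusted p under 0.05), with a median change of 0.56. Glyma.06G302900, of a wound-responsive family, read 3.04, 2.74 and 2.90 in W-C and -1.02, -1.42 and -1.48 in W-D2 and 0.46, 0.11 and 0.56 in W-D10, a change of 1.68 (SE 0.24, adjusted p = 0.000269). A relative, Glyma.13G282400, read 3.05, 3.39 and 2.54 in W-C and -0.78, -0.82 and -0.64 in W-D2 and 0.71, 0.57 and 0.29 in W-D10, a change of 1.27 (SE 0.20, adjusted p = 0.000587). Glyma.08G365100, a homologue of the factor LBD41, read 2.15, 2.21 and 1.94 in W-C and -1.14, -1.24 and -1.11 in W-D2 and 0.71, 0.28 and -0.61 in W-D10, a change of 1.29 (SE 0.24, adjusted p = 0.00181). In these 3 genes W-D10 lay above W-D2 and below W-C without overlap, so the level at 10 h was still under the control level. For LBD41 the change was 1.00 without W-D10 replicate 1, just under the 2-fold threshold. Glyma.12G200700, of the same wound-responsive family, differed from these. It read 0.11, -0.03 and -0.17 in W-C and -0.29, 0.64 and -0.24 in W-D2 and 1.19, 1.01 and 2.46 in W-D10, a change of 1.52 (adjusted p = 0.00361), with no drop at 2 h.

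Cell wall enzymes changed in both directions. Of 18 probes of expansins and xyloglucan endotransglucosylases, which loosen and rejoin the wall, 5 rose and 1 fell, all among the 13 that the study had listed. Glyma.17G065000 (XTH16 homologue) read -0.79, -0.23 and -0.55 in W-D2 and 1.88, 2.01 and 1.26 in W-D10, a change of 2.24 (SE 0.24, adjusted p = 1.64e-05), and Glyma.13G095200 (XTH23 homologue) read -1.23, -0.99 and -1.09 in W-D2 and 0.83, 0.81 and 0.82 in W-D10, a change of 1.92 (SE 0.18, adjusted p = 3.67e-06). The study pairs Glyma.17G065000 and Glyma.13G095200 with the same Arabidopsis locus, so their different XTH names may not stand for different matches. Expansin homologues Glyma.06G195000 (EXPA15) and Glyma.18G044100 (EXPA13) rose by 2.06 (adjusted p = 0.000902) and 1.55 (adjusted p = 0.000768). The decrease was absent from the 6-array fit, and there were 2 without W-D2 replicate 1 or W-D10 replicate 2 or 3. Of 12 pectin-modifying probes 2 rose and 1 fell (4 and 1 without W-D10 replicate 1), and of 26 class III peroxidases 2 rose and 1 fell (2 and 3 without W-D10 replicate 2, 2 and 2 without W-D2 replicate 1, 3 and 2 without W-D10 replicate 1). Listed by the study were 9 of the 12 pectin probes, among them the increases and not the decrease. For the peroxidases it was 21 of the 26, among them all those called. Of 10 phospholipases, all listed by the study, 2 rose and 0 fell (4 higher and 4 lower at an unadjusted p under 0.05), with 1 increase without W-D2 replicate 3. Of 22 calcium sensors and CIPK kinases 4 rose and 1 fell (2 fell without W-D10 replicate 2 and 0 without W-D10 replicate 3), all among the 15 that the study had listed. In lipid and calcium signalling the largest increases were those of single genes. Glyma.05G168300, a homologue of phospholipase D delta, which releases phosphatidic acid at the plasma membrane, read -0.55, -0.37 and 0.01 in W-D2 and 2.42, 2.39 and 2.39 in W-D10, a change of 2.70 (SE 0.35, adjusted p = 9.59e-05). Glyma.06G258000, an EF-hand protein that binds calcium, read -2.41, -2.14 and -1.84 in W-C and -0.62, -0.32 and -0.10 in W-D2 and 2.25, 1.75 and 2.56 in W-D10, a change of 2.54 (SE 0.19, adjusted p = 5.61e-07). The SOS3 homologue Glyma.06G128700 read -1.07, -1.07 and -1.10 in W-D2 and 0.12, 0.54 and 0.09 in W-D10, a rise of 1.33 (adjusted p = 1.16e-05), and the kinase homologue CIPK10 (Glyma.09G277000) fell by 1.13 (adjusted p = 0.00125), a fall that was 0.84 without W-D10 replicate 3. Of 25 heat shock probes 5 rose and 0 fell (11 higher and 3 lower at an unadjusted p under 0.05), led by the small chaperone Glyma.13G176300 (1.58, adjusted p = 0.000987) and the factor homologue HSFC1 (Glyma.09G190600, 1.44, adjusted p = 0.000291). Without W-D10 replicate 3 the list had 3 increases, and without W-D10 replicate 1 6 increases and 1 decrease. The 5 increases of the main fit were among 16 members listed by the study.

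Of 20 probes of mineral nutrient transporters 5 fell and 3 rose, and without W-D2 replicate 2 3 fell and 3 rose. The 15 that the study had listed held the 3 increases and 4 of the 5 decreases. Glyma.01G123400 encodes a homologue of the ammonium transporter AMT2. It read 2.34, 1.91 and 2.20 in W-C and 1.42, 2.26 and 1.72 in W-D2 and -0.20, 0.04 and -0.04 in W-D10, a change of -1.87 (SE 0.17, adjusted p = 3.67e-06), with W-C and W-D2 overlapping and W-D10 below both. NRT1-3, a nitrate transporter by its array symbol, read 0.92, 1.11 and 1.00 in W-D2 and 0.02, -0.04 and -0.05 in W-D10 and fell by 1.03 (adjusted p = 6.26e-05), a fall that was 0.98 without W-D2 replicate 2. The increases were led by a pair of CHX15 homologues, exchangers of cations for protons. Glyma.06G154200 read -1.00, -1.24 and -0.77 in W-D2 and 1.01, 1.24 and 1.04 in W-D10, a change of 2.10 (SE 0.25, adjusted p = 3.75e-05), and Glyma.04G212200 read -1.59, -1.65 and -1.10 in W-D2 and 0.36, 0.54 and -0.09 in W-D10, a change of 1.71 (SE 0.22, adjusted p = 9.01e-05). Among 21 probes of sugar transport and starch breakdown 3 rose and 0 fell (7 higher and 4 lower at an unadjusted p under 0.05, and 2 rose and 1 fell without W-D10 replicate 3). The increases included the beta-amylase homologue BAM1 (Glyma.09G168300, 1.16, adjusted p = 0.000328), and 2 of the 3 were among the 12 that the study had listed. Of 24 probes of amino acid and polyamine breakdown 3 rose and 0 fell (6 higher and 4 lower at an unadjusted p under 0.05, with 1 decrease without W-D10 replicate 2), led by Glyma.19G042900 (1.51, adjusted p = 7.72e-05), whose Arabidopsis match is a proline dehydrogenase. These 3 were among 12 members listed by the study.

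A pair of neighbouring F-box genes, whose products tag proteins for degradation, held the largest named decrease, that of Glyma.17G011700, and a smaller one. Glyma.17G011700 read 0.38, -0.72 and -0.55 in W-C and 2.28, 2.48 and 2.40 in W-D2 and -0.34, -0.81 and 0.04 in W-D10, a change of -2.76 (SE 0.27, adjusted p = 5.51e-06). Glyma.17G011800 read 0.81, 0.14 and -0.04 in W-C and 1.86, 1.95 and 1.81 in W-D2 and -0.22, -0.47 and 0.04 in W-D10, a change of -2.09 (SE 0.22, adjusted p = 1.03e-05). Both were high at 2 h alone, with W-C and W-D10 overlapping. Homogentisate phytyltransferase makes the first intermediate of vitamin E, and its homologue Glyma.01G134600 was also highest at 2 h. It read -0.27, -0.32 and -0.12 in W-C and 2.53, 2.42 and 2.77 in W-D2 and 0.53, 0.47 and 0.12 in W-D10, a change of -2.20 (SE 0.17, adjusted p = 5.61e-07), and W-D10 stayed above W-C without overlap. The subtilisin-like protease Glyma.10G119400 read -1.18, -0.86 and -0.77 in W-C and 2.21, 1.83 and 1.85 in W-D2 and 0.17, 0.29 and -1.09 in W-D10, a change of -2.17 (SE 0.29, adjusted p = 0.000137). It belonged to a list of 24 proteases and nucleases of senescence in which 4 fell and, by limma in both fits and by the t-test, 0 rose (1 higher and 7 lower at an unadjusted p under 0.05). Without W-D2 replicate 2 or W-D10 replicate 3, 1 rose. The 4 decreases were among 11 members listed by the study. The vacuolar processing enzyme homologue Glyma.17G230700 fell by 1.40 (adjusted p = 8.62e-05) and the ribonuclease homologue RNS1 (Glyma.02G064300) by 1.54 (adjusted p = 0.000605).

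Other decreases started from W-D2 levels that overlapped W-C. The O-methyltransferase Glyma.09G094600 read 3.48, 3.51 and 3.63 in W-C and 4.02, 3.28 and 3.33 in W-D2 and 2.52, 1.74 and -0.18 in W-D10, a change of -2.18 (SE 0.42, adjusted p = 0.00281). The S-locus lectin kinase Glyma.04G042500 read 2.07, 2.46 and 2.51 in W-D2 and 0.54, 1.20 and -0.38 in W-D10, with 2.92, 2.39 and 2.29 in W-C, and fell by 1.89 (adjusted p = 0.00125). The resistance protein homologue Glyma.03G038800 (NB-ARC domain) fell by 1.88 (adjusted p = 6.94e-05). In all 3 W-D10 lay below both other groups. In a further set W-D2 lay above W-C and W-D10 below both. It held Glyma.18G208100, a protein phosphatase 2C that is in no list here, at 0.46, -0.01 and 0.43 in W-C and 0.49, 1.70 and 1.62 in W-D2 and -0.42, -1.21 and -1.26 in W-D10, a change of -2.23 (SE 0.27, adjusted p = 5.11e-05). It also held 2 cytochrome P450 homologues, of a family list of 33 probes in which 4 fell and 3 rose (4 and 5 without W-D10 replicate 3), all among the 26 that the study had listed. Glyma.09G049100 (CYP81D3 homologue) read 1.20, 1.00 and 1.38 in W-D2 and -0.47, -0.63 and -0.50 in W-D10, a change of -1.73 (SE 0.14, adjusted p = 9.09e-07), and Glyma.10G115300 (CYP71B34 homologue) read 1.32, 0.98 and 0.97 in W-D2 and -0.22, -0.83 and -0.95 in W-D10, a change of -1.76 (SE 0.21, adjusted p = 4.21e-05). Of 36 receptor-like kinases 2 rose and 2 fell, all among the 20 that the study had listed. Leaving out 1 array gave 1 to 2 increases and 1 to 3 decreases, with 1 and 1 without W-D2 replicate 2. Glyma.03G003300 (RLK4 homologue) read -0.27, -0.15 and 0.01 in W-C and 1.32, 1.63 and 1.55 in W-D2 and 0.52, -0.47 and 0.00 in W-D10, high in W-D2 alone, and Glyma.18G273100 (ANX2 homologue), a rise of 1.00 (adjusted p = 0.000711), lost its call in 4 of the 6 leave-one-out fits (0.91 to 0.97). Phenylpropanoid and isoflavonoid enzymes had 0 increases and 2 decreases among 31 probes by limma, with 0 higher and 12 lower at an unadjusted p under 0.05, 3 lower in the 6-array fit, 0 by the t-test and 1 lower without replicate 2 of W-D2 or of W-D10. Only 4 of the 31 had been listed by the study, among them 1 of the 2 decreases. Both decreases were 4-coumarate:CoA ligases, which feed lignin and flavonoid synthesis: Glyma.11G010500 (4CL3) fell by 1.10 (adjusted p = 0.000108) and 4CL2 by 1.05 (adjusted p = 0.000853), the latter losing its call without W-D2 replicate 2 (-0.95) or W-D10 replicate 2 (-0.89).

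**Figure D3:**
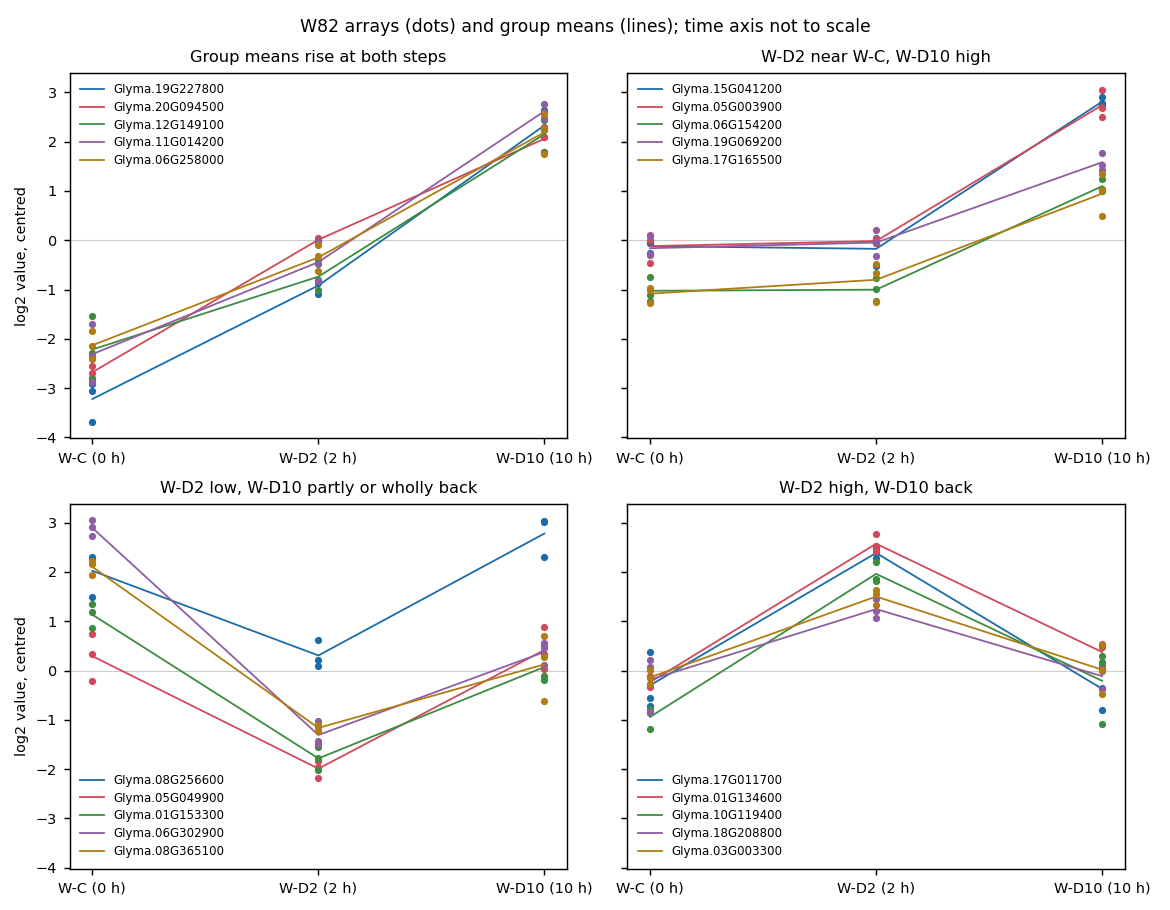
Centred log2 values (vertical axis) of 20 named genes in W-C, W-D2 and W-D10, 5 in each panel, with dots for arrays and lines through group means. The genes were put in the panels after their values were seen, and show changes from 2 h to 10 h of like size beside W-C levels that lie below, near or above W-D2.

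Set beside W-C, changes of like size from 2 h to 10 h belonged to different courses. Glyma.06G258000 and Glyma.08G256600 changed by 2.54 and 2.47, and their means ran -2.13, -0.35 and 2.19 in the former and 2.02, 0.31 and 2.78 in the latter (W-C, W-D2 and W-D10 in turn). Among the decreases, Glyma.01G134600 and Glyma.09G094600 fell by 2.20 and 2.18 from means of 2.57 and 3.54 at 2 h, with W-C means of -0.24 and 3.54. These comparisons with W-C share the W-D2 and W-D10 arrays and are given as levels only. Circadian clock and light signalling genes, many of which vary with the time of day, gave 1 increase and 0 decreases (1 without W-D10 replicate 2 or 3) among 23 probes by limma in both fits, 0 by the t-test, and 4 higher and 6 lower at an unadjusted p under 0.05. The increase, among 14 members listed by the study, was the RVE1 homologue Glyma.18G044200, at -0.08, -0.12 and 0.04 in W-D2 and 0.98, 1.42 and 1.08 in W-D10 (1.22, adjusted p = 0.000269). Cytosolic ribosomal proteins, a reference list, gave 0 calls of 14 probes by all 3 tests, with 2 higher and 3 lower at an unadjusted p under 0.05 and a median change of -0.01. Of 27 glutathione S-transferases, which detoxify by conjugation, 2 rose and 0 fell (10 higher and 2 lower at an unadjusted p under 0.05), both among the 7 that the study had listed. Further lists with 0 calls by limma in both fits and by the t-test were the GASA peptides (14 probes, 7 higher and 1 lower at an unadjusted p under 0.05), the lipoxygenases (10 probes, 4 and 0) and the protease inhibitors (9 probes, 4 and 0), with median changes of 0.44, 0.33 and 0.34, and with at most 1 call each when 1 array was left out. Seed storage proteins, checked as markers of embryo-like expression, gave 2 increases and 0 decreases of 12 probes (2 higher and 0 lower at an unadjusted p under 0.05), both matched to the vicilin-like protein PAP85 and to the array symbol CG-BETA-1: Glyma.20G146200 read -0.77, -0.56 and -0.43 in W-D2 and 0.51, 1.00 and 1.11 in W-D10 and Glyma.20G148200 read -0.65, -0.49 and -0.44 in W-D2 and 0.56, 0.82 and 1.10 in W-D10. These 2 were the only members of the 12 that the study had listed.

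The study singled out some genes in its table of candidates and its RT-qPCR list, and probes of 14 of them were found. Of these, 5 rose and 1 fell, among them the GolS2, XTH23 and CHX15 homologues given above. Glyma.16G003500, of the glyoxalase family that detoxifies methylglyoxal, read -1.21, -1.33 and -1.45 in W-D2 and 0.06, 0.28 and 0.03 in W-D10, a rise of 1.46 (SE 0.15, adjusted p = 9.11e-06). Glyma.04G083000 has a pleckstrin homology-like region, and the paper lists it as a putative phosphoinositide binding protein. It read -3.35, -3.49 and -3.20 in W-C and -0.49, -0.91 and -0.36 in W-D2 and 0.36, 0.78 and 0.54 in W-D10, a rise of 1.15 (adjusted p = 0.000269) that was 0.99 without W-D2 replicate 2. Glyma.11G195200, a homologue of the nitrate transporter NRT2.4, fell by 1.01 (adjusted p = 0.00691), a call that was lost without W-D2 replicate 2 or without W-D10 replicate 1 or 2 (-0.99 to -0.88). The W-D10 arrays lay below W-D2, and W-D2 below W-C.

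The other 8 were not called. The NAC factors Glyma.13G279900 and Glyma.13G030900 changed by 0.65 (adjusted p = 0.00843) and 0.31 (adjusted p = 0.283), and their W-D2 and W-D10 arrays did not overlap in the former and overlapped in the latter. The homologue of the brassinosteroid kinase BIN2 (Glyma.02G069400) and the protein phosphatase 2C Glyma.12G202400 changed by -0.70 and -0.87, with adjusted p of 0.00853 and 0.000754 but under 2-fold. The bZIP42 homologue Glyma.08G254400 changed by 0.83, and by 1.03 without W-D2 replicate 2, where it passed. Glyma.14G216500, a homologue of the light signalling factor STH2, changed by -0.94, and passed without W-D10 replicate 2 (-1.00) or 3 (-1.08). The remaining pair were the myotubularin homologue Glyma.20G189100 (0.16) and the protein phosphatase 2C Glyma.06G050900 (-0.39).

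DT2008 roots gave 821 increases and 653 decreases over the same interval, 2.23% of all probes, on arrays that W82 does not share, although both comparisons take their spread from the same fit. The paper reports that relative water content of the aerial parts was lower in W82 than in DT2008 at both times, by more at the later one. Equal hours were thus not equal water loss, and the part of this in any difference between cultivars was not tested. A total of 256 probes rose in both cultivars, 26.7% of the W82 increases and 31.2% of the DT2008 increases, and 181 fell in both, 27.6% and 27.7%. A total of 3 W82 increases and 0 W82 decreases were called the other way in DT2008. Probes called higher in W82 had median changes of 1.28 in W82 and 0.64 in DT2008, and probes called higher in DT2008 had medians of 1.22 in DT2008 and 0.70 in W82, where choosing probes by one cultivar's change favours a larger median in that cultivar. The difference between the cultivars in the change was tested directly. It was called for 314 probes (0.474%), 193 with the more positive change in W82 and 121 with the more negative. Of the 958 W82 increases 94 had such a difference, and of the 656 W82 decreases 41. The counts of 193 and 121 moved with single arrays: without W-D2 replicate 2 they were 51 and 32, without W-D2 replicate 1 85 and 75, and without W-D10 replicate 2 109 and 59.

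The difference was called for Glyma.01G123400, the AMT2 homologue. In DT2008 it read -0.20, -0.33 and -0.19 at 2 h and -0.44, -0.35 and -0.27 at 10 h, a change of -0.12 against -1.87 in W82, and the difference of -1.75 (adjusted p = 0.00507) kept its call without each of the 6 W-D2 and W-D10 arrays in turn. DT2008 arrays were not left out for this or any other gene, so dependence on a single DT2008 array was not tested. The CHX15 homologue Glyma.04G212200 read 1.17, 1.93 and 1.65 in DT-D2 and 1.23, 1.73 and 1.31 in DT-D10, and its difference of 1.88 (adjusted p = 0.0116) also kept its call. So did that of the phospholipase A homologue Glyma.14G081500, 2.16 (adjusted p = 0.0116), which rose by 1.14 in W82 (0.97 without W-D2 replicate 3) and changed by -1.02 in DT2008. The CYP707A1 homologue Glyma.01G153300 changed by 0.02 in DT2008, a difference of 1.83 (adjusted p = 0.014) that lost its call without W-D2 replicate 2 alone (adjusted p = 0.0508). Among 38 AP2/ERF probes the difference was called for 4 with the more positive change in W82 and 0 with the more negative. Over the 1414 named probes that the study had listed these counts were 64 and 16. The AP2/ERF genes Glyma.05G049900 and Glyma.01G231000 kept their call in 2 and 1 of the 6 leave-one-out fits. For the GolS2 homologue Glyma.19G227800 the change was 1.49 in DT2008, and the difference of 1.76 (adjusted p = 0.0436) lost its call whichever W-D2 or W-D10 array was left out (adjusted p = 0.0565 to 0.121). The TIP1;3 homologues Glyma.13G333100 and Glyma.15G041200 changed by 2.06 and 2.22 in DT2008, with differences of 1.58 (adjusted p = 0.108) and 0.77 (adjusted p = 0.232) that did not pass. The F-box gene Glyma.17G011700 fell by 2.96 in DT2008, with a difference of 0.21 (adjusted p = 0.887).

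**Figure D4:**
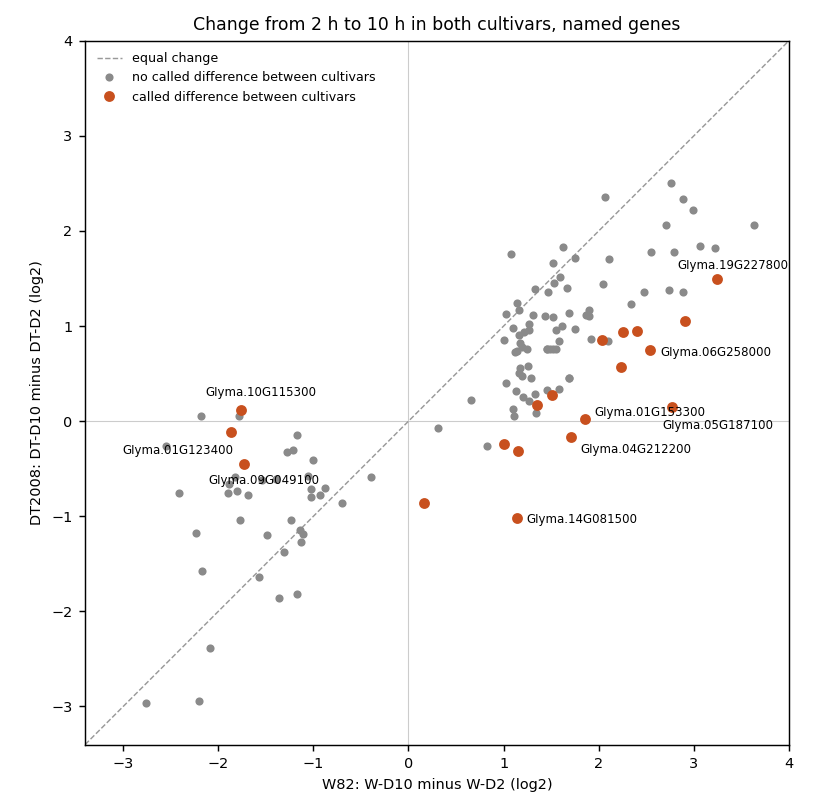
Change from 2 h to 10 h on the log2 scale in W82 (horizontal) and DT2008 (vertical) for the 133 probes of the naming rule, with equal changes on the dashed line and the 19 called differences between cultivars in orange. Most of these genes were chosen for their change in W82, so the side of the line on which they lie is not a result.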

How the data were processed

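RNA from roots of 6 groups was hybridised to 18 soybean GeneChip arrays, 3 biological replicates a group. The deposited log2 values were made by the authors with RMA in Affymetrix Expression Console (versions are not given in the sources used here) and, as inferred from probe medians of 0, centred for each probe on its median over the arrays. No further normalization or filter was applied. The change from W-D2 to W-D10 was fitted with limma 3.58.1 in R 4.3.3 (lmFit and eBayes) to all 18 arrays and 66195 probes, with Benjamini-Hochberg adjustment over all probes. A probe was called at an adjusted p under 0.05 and at least 2-fold. The difference between cultivars was an interaction contrast of the same fit, called at the same thresholds. The methods' t-test (Student's, with the same adjustment) was run as an alternative, as were the other settings described with the limits. With 3 arrays a group, the number of arrays limits the precision, and scan batches were not given in the sources used here.

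Genes were named by a rule: the 15 largest increases and 15 largest decreases with 1 gene and no overlap between groups, up to 4 called members of each of 38 lists by adjusted p, and genes the study names, 133 probes in all. Fewer are printed. Further list members, among them those said to be not called, were picked after their values were seen. The comparison, its members and the lists were chosen with earlier results of these data known. The fitting scripts were tested on simulated data.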

Additional observations from a re-analysis of the deposited data

Results flagged for a closer look

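For 19 of the 133 probes of the naming rule, not all of them printed above, the test of the difference between cultivars in the 10 h against 2 h change was passed. All values here are log2 differences, W82 minus DT2008, with limma's adjusted p over all probes, and no explanation was tested. Most of these genes were named for a large change in W82, a choice that favours a difference on that side.

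The difference was positive for Glyma.19G227800, the GolS2 homologue, at 1.76 (adjusted p = 0.0436). It was 1.85 (adjusted p = 0.0066) for Glyma.19G181600 and 2.62 (adjusted p = 0.0281) for Glyma.05G187100, both with no description. The EF-hand protein Glyma.06G258000 had 1.79 (adjusted p = 0.00825) and the DDF1 homologue Glyma.05G049900 1.46 (adjusted p = 0.037). For the ACS8 homologue Glyma.01G196100 it was 1.32 (adjusted p = 0.0342), for the XTH16 homologue Glyma.17G065000 1.67 (adjusted p = 0.0348) and for the AP2 factor Glyma.01G231000 1.18 (adjusted p = 0.0473). The CYP707A1 homologue Glyma.01G153300 had 1.83 (adjusted p = 0.014) and the CHX15 homologue Glyma.04G212200 1.88 (adjusted p = 0.0116). It was 1.23 (adjusted p = 0.0474) for Glyma.19G042900, matched to a proline dehydrogenase, and 1.18 (adjusted p = 0.0437) for the vicilin-like Glyma.20G148200. Glyma.04G083000, the putative phosphoinositide binding protein, had 1.47 (adjusted p = 0.0102). The phospholipase A homologue Glyma.14G081500 had 2.16 (adjusted p = 0.0116) and the ANX2 homologue Glyma.18G273100 1.24 (adjusted p = 0.0222). The myotubularin homologue Glyma.20G189100 had 1.02 (adjusted p = 0.0297), with W82 and DT2008 changes of 0.16 and -0.86.

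The difference was negative for the CYP81D3 homologue Glyma.09G049100 at -1.27 (adjusted p = 0.00917), the CYP71B34 homologue Glyma.10G115300 at -1.87 (adjusted p = 0.0101) and the AMT2 homologue Glyma.01G123400 at -1.75 (adjusted p = 0.00507).

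With each of the 6 W-D2 and W-D10 arrays left out in turn, 8 of the 19 kept their call in all 6 fits: Glyma.19G181600, Glyma.06G258000, Glyma.04G212200, Glyma.04G083000, Glyma.14G081500, Glyma.09G049100, Glyma.10G115300 and Glyma.01G123400. The GolS2 homologue kept it in none. No DT2008 array was left out, so dependence on single DT2008 arrays was not tested. Without W-D2 replicate 2, 9 of the 19 were kept, the fewest, and without W-D10 replicate 3, 15.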

How the results depend on the processing

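None of the 133 probes of the naming rule changed direction under the alternatives run. Increases outnumbered decreases over all probes in each of these settings except that without a fold threshold, where decreases did. The methods' t-test called 50 increases and 12 decreases in place of 958 and 656, and 6 and 1 list members in place of 112 and 33. Without a fold threshold 2997 and 3020 probes were called, and 192 and 96 list members. With only the probes of 1 gene tested, 356 rose and 130 fell, against 354 and 120 of the same probes when all were tested, so fewer probes tested accounts for most of the drop. The difference between cultivars also moved: it was called for 379 and 207 probes after quantile normalization and for 511 and 440 with array weights, in place of 193 and 121, and the cause was not tested.

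Leaving out each W-D2 and W-D10 array in turn gave 902 to 1006 increases, 572 to 847 decreases, 107 to 116 and 27 to 40 list members, and differences between cultivars of 51 to 234 and 32 to 117. No W-C array was left out. The lowest were without W-D2 replicate 2 (51 and 32), and those without W-D2 replicate 1 (85 and 75) and W-D10 replicate 2 (109 and 59) also moved by over 1.5 times. From 80.4% to 88.9% of the main calls were kept in these fits. The 6 arrays alone kept 95.5%, quantile normalization 97.0% and array weights 92.3%. Of the 133 named probes, 116 lost their call by the t-test.

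Replicate numbers did not pair the arrays: deviations of W-D2 and W-D10 arrays of the same number correlated at -0.0226, -0.0945 and -0.0642, and 3 of 18 arrays correlated best with their own number. With the replicate block, 954 probes rose and 658 fell, 99.1% of the main calls were kept, the lists had 112 and 33 calls, and the cultivar difference was called for 162 and 108 probes. The planned look at promoter motifs was not run, as no promoter sequence was used here.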
